A study of Mus musculus with 6 samples.

Results

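The genes described here encode the proteins of the cytoplasmic ribosome. They are the rows of the expression table whose symbol is *Rpl* or *Rps* with a number (and, for some, a closing a, l, x or y), or *Rplp0*, *Rplp1* or *Rplp2*, which leaves out the S6 kinase genes. The rule found 79 of 21639 rows, 48 for the large subunit and 31 for the small subunit. RNA-Seq had been done on 3 mouse embryonic stem cell (ESC) lines at D0 and on embryoid bodies (EBs) made from them in suspension without LIF for 3 days, with 1 library for each of the 6 conditions. The lines share a V6.5 (129SvJaexC57BL/6) label and a short hairpin against endogenous H2A.Z, a histone variant of promoter nucleosomes. H2A.Z WT also expressed a doxycycline-inducible H2A.Z-YFP, and H2A.Z AP3 expressed the same fusion with 3 residues of the acidic patch changed. H2A.Z KD is the name for depletion of endogenous H2A.Z by the hairpin. The authors describe adding the hairpins to transgenic lines made from KH2 ESCs. The sample titles do not say whether the KD line holds a transgene. The transgenes are driven from an inducible CMV promoter, and YFP-positive cells had been sorted to make the transgenic lines. With 1 library per condition no spread between replicates can be given, and every difference below is a difference between libraries.

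Each ribosome contains a single copy of nearly every one of these proteins, so the genes are transcribed at high and matched levels in growing cells. Their mRNAs are known for starting with a C followed by a run of pyrimidines, the TOP motif, through which growth signals control their translation. ESCs are known for rapid division, which calls for new ribosomes. A few genes of the family are paralogs that are used in some tissues or under stress, among them *Rpl3l* in muscle, *Rpl10l* and *Rpl39l* in the testis and *Rps27l*, a target of p53.

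The start sites of some of these genes are printed to show the pyrimidine run for which the family's mRNAs are known. Of the 79 symbols, 59 were found in the RefSeq start-site table (GRCm38.p6), and 20 were not used. Each line gives 30 bases 5′ to 3′ on the strand of the gene, in capitals from the first base of the RefSeq transcript onwards. *Rps6*, *Rpl35*, *Rpl38*, *Rplp2* and *Rps10* are shown because they begin at the first base of such a run, which many other members' annotated starts do not.
Rps6, chr4:86857353-86857382, minus strand: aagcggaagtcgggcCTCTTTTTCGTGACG
Rpl35, chr2:39005117-39005146, minus strand: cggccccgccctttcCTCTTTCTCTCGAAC
Rpl38, chr11:114668565-114668594, plus strand: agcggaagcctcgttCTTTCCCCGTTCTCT
Rplp2, chr7:141447636-141447665, plus strand: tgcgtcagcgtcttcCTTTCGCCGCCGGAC
Rps10, chr17:27635230-27635259, minus strand: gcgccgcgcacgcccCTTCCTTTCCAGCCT

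A C followed by at least 4 pyrimidines began within 5 bases of the annotated start, on the gene's own strand, in 30 of the 71 start-site entries of the family (42.3%) and in 18.3% of the 32851 entries of all genes. The letters CTTTC, on the same strand and within 25 bases of the start, were in 26.8% of the family's entries and in 6.75% of all entries. The letters CCGGAAG, the core of the site of ETS factors, were found on either strand of the window from 250 bases before to 50 bases after the start in 35.2% of the family's entries and in 8.86% of all. These are matches of letters, and the starts are those of the annotation and were not measured in these cells.

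The level of *H2afz*, the targeted gene, was read first. It was 279 RPKM in WT, 343 in KD and 304 in AP3 ESCs, and 258, 236 and 394 RPKM in the EBs in the same order. RPKM are reads scaled to transcript length and library size. *H2afz* was thus not lower in the KD library at D0 than in the WT library, and its row cannot separate transgene from endogenous reads, so the KD libraries are named by their label only. The 5 of 6 listed ESC markers found in the table summed to between 961 and 1388 RPKM in each library. Members of this sum differed in opposite directions in AP3 ESCs: *Sox2* had 191, 196 and 110 RPKM in WT, KD and AP3 ESCs, a log2 change of -0.80 between AP3 and WT, and *Pou5f1* had 421, 413 and 540 (0.36). The early EB and epiblast markers, led by *Otx2* and *Dnmt3b*, summed to 35.9 to 49.2 RPKM at D0 and to 108 to 139 at D3. *Otx2* had 4.22 RPKM in WT and 1.37 in AP3 ESCs (-1.62). Of the library sums, that of 6 feeder fibroblast markers was highest in AP3 ESCs, at 44.6 RPKM against 26.1 in WT and 22.9 in KD ESCs, and was 7.23 to 12.7 in the EBs. In ESCs its main members are the collagen genes *Col1a1* (15.5 RPKM in AP3 ESCs) and *Col1a2* (22.5), and *Postn* was listed at 0 there. In EBs its largest member was *Thy1*, with 9.19, 5.48 and 3.56 RPKM in WT, KD and AP3, and *Thy1* was at 1.74 in both WT and AP3 ESCs. The 4 endoderm markers, led by *Gata4* and *Gata6*, summed to 7.18, 10.3 and 24.6 RPKM in WT, KD and AP3 ESCs and to 31.2, 50.7 and 30.8 in the EBs.

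Ribosomal protein genes were among the highest in every library. Between 58 and 64 of them ranked in the top 100 rows of each library, and together they made up 17.5% of the summed RPKM in WT, 16.6% in KD and 19.6% in AP3 ESCs. In the EBs their share was 19.6% in WT, 18.3% in KD and 18.5% in AP3. The share was lowest in the KD library at D0, and AP3 ESCs had the same share, at 3 digits, as WT EBs. This is a share per transcript length and not of reads, and since it is a share of RNA, more RNA per cell and a different mix of cells cannot be told apart. The large subunit summed to 1.46 to 1.52 times the small subunit in every library.

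**Figure D1:**
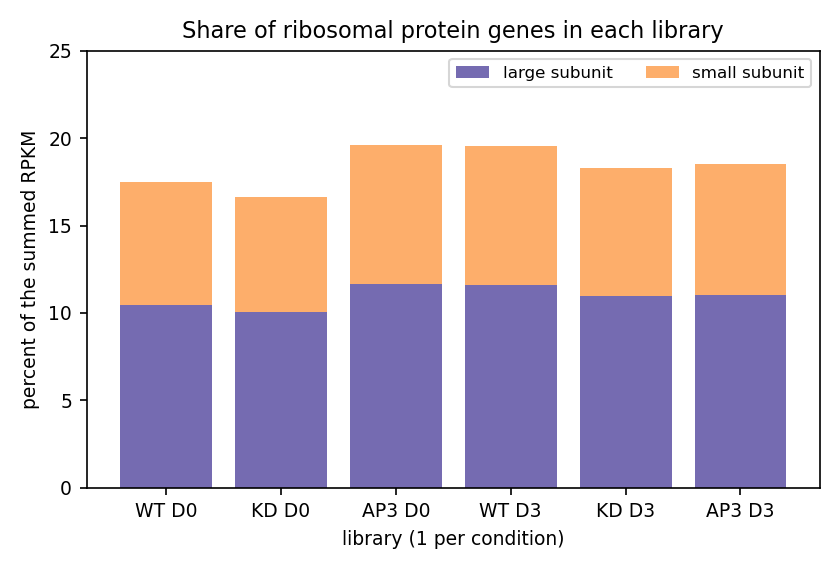
Percent of each library's summed RPKM held by large subunit and small subunit genes, as stacked bars for the 6 libraries, 1 per condition. The total lies between 16.6% and 19.6%, with the lowest bar in KD ESCs and the highest in AP3 ESCs and WT EBs.

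Averaged over all libraries, 76 of the 79 genes reached 10 RPKM or more, and the other 3 were the paralogs *Rpl3l*, *Rpl10l* and *Rpl39l*. The median of the 76 was 797 RPKM in WT, 741 in KD and 899 in AP3 ESCs. In the EBs it was 995 RPKM in WT, 861 in KD and 921 in AP3. The order of the genes was nearly the same in all libraries: over 15 pairs of libraries, Spearman's rho over the 76 genes was 0.958 to 0.991. The libraries share the alignment, the gene models and their lengths. Over 73 of the genes, mean RPKM and transcript length had a Spearman's rho of 0.18. How far the shared processing set this order was not tested.

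The highest mean belonged to *Rpl13a*, a large subunit gene whose product is also known for silencing mRNAs in inflammation. Its level was 2464, 2408 and 2254 RPKM in WT, KD and AP3 ESCs and 2294, 2427 and 2284 RPKM in the EBs. It varied least of all the 76 genes, by 1.09-fold from the lowest to the highest library. *Rplp1*, a stalk protein, followed with 1922, 1717 and 2698 RPKM at D0 and 2606, 2091 and 2534 at D3. *Rps2*, a protein of the mRNA entry site, had 1989.9, 1825 and 2539 RPKM at D0 and 2254, 2215 and 2434 at D3. *Rpl41*, which encodes the shortest of the ribosomal proteins, had a mean of 2054 RPKM. Except for *Rpl13a*, these 4 genes were higher in AP3 than in WT ESCs.

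**Figure D2:**
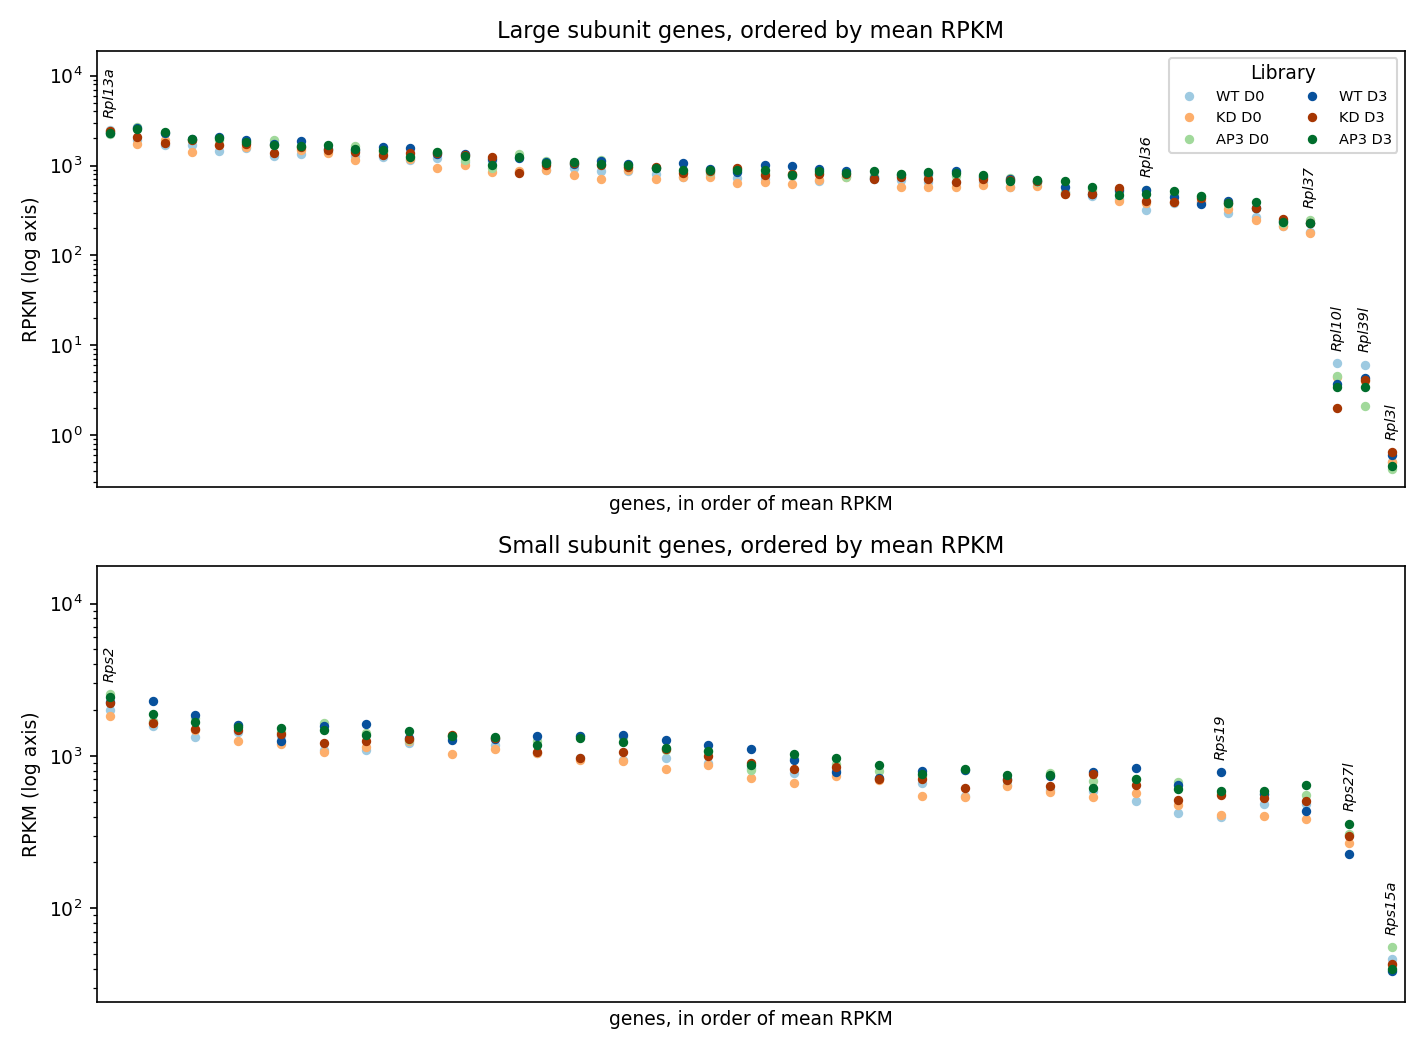
RPKM on a log axis of each ribosomal protein gene in the 6 libraries, in the upper panel for the large subunit and in the lower for the small subunit, ordered by mean RPKM, with some genes named. Apart from *Rps15a*, *Rpl10l*, *Rpl39l* and *Rpl3l* all genes lie at 179 RPKM or above in every library, and the last 3 lie at 6.33 RPKM or below.

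At the low end, *Rpl3l*, the muscle paralog of *Rpl3*, had 0.425 to 0.649 RPKM, where *Rpl3* had 1265 to 1921. *Rpl10l*, a gene of 1 exon, had 2.02 to 6.33 RPKM, and the X-linked gene *Rpl10* that it resembles had 638 to 935. *Rpl39l* had 2.11 to 6.05 RPKM against 573 to 810.2 for *Rpl39*. The stress paralog *Rps27l* was different from these, with 228 to 359.6 RPKM beside 662 to 1035 for *Rps27*. The next genes from the bottom were *Rps15a*, at 38.8 to 55.4 RPKM, and *Rpl37*, at 179 to 245. The closest annotated transcript of *Rps15a* is 5130 bases long for a coding length of 393, and RPKM divides by length. Whether the authors' values used this transcript is not known, and the part of length in the low level was not tested.

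The other changes past 1.5-fold among the 79 were those of *Rpl39l* and *Rpl10l*, 2 of the 3 paralogs of low level. *Rpl39l* was lower in AP3 ESCs than in WT and KD ESCs, and in the AP3 line it was higher at D3 than at D0 (0.71). *Rpl10l* was lower at D3 than at D0 in the WT line (-0.77) and in the KD line (-1.13), lower in KD than in WT EBs (-0.88) and higher in AP3 than in KD EBs (0.78). At such levels a change can rest on few reads, and *Rpl3l* passed 1.5-fold in no comparison.

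Many copies of these genes lie elsewhere in the genome as processed pseudogenes, and the reads had been kept at up to 20 places. Among the 73 genes of at least 10 RPKM with a usable transcript model on NCBIM37, 23 had at least 50% of their stretches of 36 bases at 1 place or none, and 28 had under 20%. In *Rps27*, 0.323% of the stretches were at 1 place or none. In *Rpl7a*, 52.7% of stretches were at more than 20 places, in *Rps2* 49.2% and in *Rpl29* 48.9%. Levels of such genes are uncertain, since reads can be shared with copies or dropped. Over the 73 genes, the percentage at 1 place or none and the mean RPKM had a Spearman's rho of -0.06.

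The first question of the design is how ESCs with the mutated acidic patch differ from those with WT H2A.Z. Ribosomal protein genes were mostly higher in AP3 than in WT ESCs. The median log2 change over the 79 genes was 0.22, against 0.00 over all rows and 0.01 over the 5934 other genes of at least 10 RPKM. Of the 76 genes of at least 10 RPKM, 70 (92.1%) were higher, where 50.9% of the other genes were. The large subunit had a median of 0.23 and the small subunit of 0.21. With each library divided by the sum over all its rows the median over the 79 genes was 0.14.

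At 1.5-fold, 4 of the 76 were past the threshold, all higher, and over all genes of at least 10 RPKM 6.14% were past it in either direction. The 4 genes thus made no larger share than the background, and the family's difference lay in many small changes of one sign. Among the 4, *Rpl36* had 317 RPKM in WT and 528 in AP3 ESCs, a log2 change of 0.74. *Rpl32* went from 846 to 1339 (0.66), and *Rpl3*, a protein at the peptidyl transferase centre, from 1265 to 1921 (0.60). In the KD library the last of these was at 1674, between the other lines, and *Rpl32* was at 865, near WT. Divided by the sum over all rows, *Rpl32* and *Rpl3* fell under 1.5-fold, and divided by that over other genes *Rpl3* did, while *Rpl36* stayed past it in both.

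A few genes went the other way. *Rpl23*, which also binds Mdm2, had 1137 RPKM in WT and 934 in AP3 ESCs (-0.28). *Rpl13a* (-0.13) and *Rps23* (-0.04), a protein of the decoding centre, were next. Among the paralogs, *Rpl39l* had 6.05 RPKM in WT, 4.06 in KD and 2.11 in AP3 ESCs, a log2 change of -1.52 between WT and AP3 at a level where few reads are expected. *Rps27l* differed little, with 301 and 307 RPKM.

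Short genes as a whole were slightly higher in AP3 ESCs too. The 602 other genes of at least 10 RPKM with a transcript model under 1 kb had a median change of 0.09, and the 49 of them with at least 200 RPKM one of 0.12. The 22 ribosomal protein genes with a model under 0.6 kb had a median of 0.25, and the 51 longer ones 0.22. Genes of at least 200 RPKM outside the family (204) had a median of 0.02. The feeder and endoderm marker sums given above were also highest at D0 in the AP3 library, and *Sox2* and *Otx2* were lowest there. According to the authors, ESCs for RNA-Seq had no feeder cells in their last passage. The part of length, level and other cells or cell states in the difference was not tested.

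AP3 ESCs set beside KD ESCs gave a wider difference. The median over the 79 genes was 0.30, and 74 of the 76 genes of at least 10 RPKM were higher in AP3, where 50.8% of other genes were. Past 1.5-fold were 5 of the 76, all higher, where 9.30% of all genes of at least 10 RPKM were past it either way. They were *Rpl12*, a stalk base protein, with 709 RPKM in KD and 1142 in AP3 ESCs (0.69), *Rplp1* (0.65), *Rps20* with 1060.2 and 1643 (0.63), *Rpl32* (0.63) and *Rps21* with 540.1 and 812 RPKM (0.59). Divided by the sum over all rows, *Rpl32*, *Rps20* and *Rps21* fell under 1.5-fold, and centring or dividing by the sum over other genes took *Rps21* alone under it. Below 0 were *Rpl13a* (-0.10) and *Rpl36a*, which had 743 RPKM in KD and 742 in AP3 ESCs. *Rpl7a* was nearest above 0, at 0.02. This comparison has the AP3 library in common with the last one, so their values are not independent.

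KD and WT ESCs were closer to each other. The median over the 79 genes was -0.06, none of the 76 passed 1.5-fold, and 1.88% of all genes of at least 10 RPKM did. In KD ESCs 24 of the 76 (31.6%) were higher, where 49.6% of other genes of at least 10 RPKM and 68.6% of those of at least 200 RPKM were. The highest changes were those of *Rpl3* (0.40), *Rpl36* (0.27) and *Rpl18* (0.24), and the lowest were *Rpl23* with 1137 RPKM in WT and 843 in KD (-0.43), *Rpl13* with 1225 and 949 (-0.37) and *Rps4x* with 1320.2 and 1034 (-0.35). *Rps4x* is 1 of 4 X-linked genes of the family, with *Rpl10*, *Rpl36a* and *Rpl39*. All 4 were lower in KD than in WT ESCs, with a median of -0.23. In the EBs 2 of them were higher in KD and 2 lower, with a median of 0.02.

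**Figure D3:**
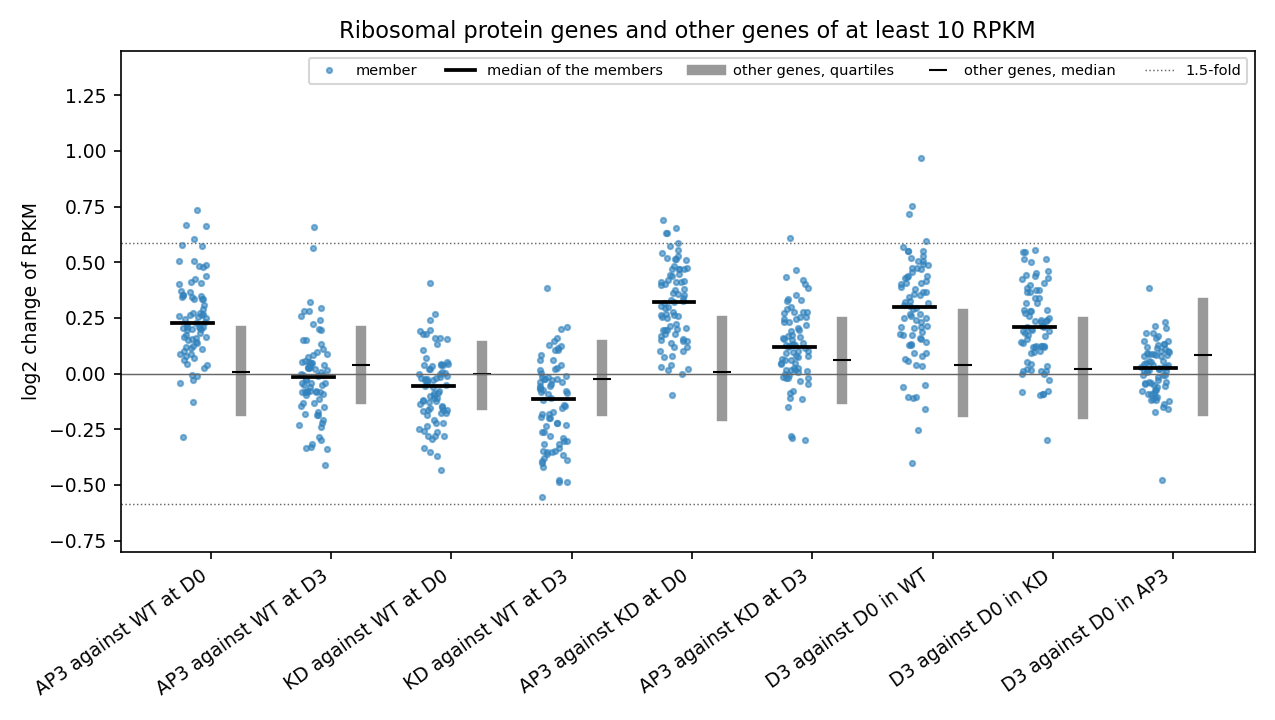
Log2 change of RPKM in each of the 9 comparisons, with a point for each of the 76 ribosomal protein genes of at least 10 RPKM, their median as a line, and the quartiles and median of 5934 other genes of at least 10 RPKM as a grey bar with a dash. The family lies above 0 for AP3 against WT and KD at D0 and for D3 against D0 in the WT and KD lines, and around 0 for D3 against D0 in AP3.

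The design next asks how the lines differ after 3 days as EBs. AP3 and WT EBs had no common difference over the family, while other genes were more often higher in AP3. The median over the 79 genes was -0.03, and 33 of the 76 genes of at least 10 RPKM (43.4%) were higher in AP3 EBs. Of the other genes 57.3% were higher, of those of at least 200 RPKM 70.1% with a median of 0.09, and of those under 1 kb 69.3% with a median of 0.15. Scaled to the sum of other genes, the family's median was -0.09. Of the 76 genes 1 was past 1.5-fold where 3.44% of all genes of that level were. This was *Rps27l*, with 228 RPKM in WT, 298 in KD and 359.6 in AP3 EBs (0.66). *Rps29*, with 434, 502 and 642 RPKM, followed at 0.56 and *Rps13* at 0.32. The lowest was *Rps19*, a gene mutated in Diamond-Blackfan anaemia, with 780.2 RPKM in WT and 588 in AP3 EBs (-0.41), then *Rps24* (-0.34) and *Rps23* (-0.34). Over the 76 genes, the AP3 to WT changes at D0 and at D3, which share no library, had a Spearman's rho of -0.15. Between days, rho was -0.44 for KD against WT and 0.17 for AP3 against KD. For the D3 against D0 changes, rho was -0.11 between the WT and KD lines, -0.37 between WT and AP3 and -0.07 between KD and AP3.

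KD EBs had lower levels than WT EBs for most of the family. The median over the 79 genes was -0.11, and 58 of the 76 genes were lower. The 18 that were higher made 23.7% of the 76, where 45.8% of other genes of at least 10 RPKM were higher. Of other genes of at least 200 RPKM 39.7% were higher, of those under 1 kb 39.5% with a median of -0.07, and of the 49 that were both 32.7% with a median of -0.08, so such genes were mostly lower too. The 23 genes with at least 50% of their stretches at 1 place or none had a median of -0.04 with 14 lower, and the 50 with more repeated stretches one of -0.18 with 42 lower. Divided by the sum over all rows, the median over the 79 genes was -0.05. None of the 76 passed 1.5-fold, beside 2.78% of all genes of at least 10 RPKM. *Rpl32* had 1200.0 RPKM in WT and 816 in KD EBs (-0.56). *Rps19* went from 780.2 to 556 RPKM (-0.49). *Rps27l* (0.39), *Rps29* (0.21) and *Rpl15* (0.20) were higher in KD EBs. Of the 3 paralogs of low level, *Rpl10l* was past 1.5-fold, at 3.72 RPKM in WT and 2.02 in KD EBs.

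AP3 EBs were above KD EBs by a median of 0.12 over the 79 genes, with 60 of the 76 (78.9%) higher. Of other genes 59.3% were higher, of those of at least 200 RPKM 77.5% and of those under 1 kb 78.7%, so the family's share was near that of other highly expressed or short genes. With scaling to the sum over all rows or over other genes the median was 0.01 or 0.02, and over the 23 genes with at least 50% of their stretches at 1 place or none it was 0.03, with 14 higher. Of the 76 only *Rpl32*, with 816 and 1245 RPKM (0.61), passed 1.5-fold, beside 4.93% of all genes of at least 10 RPKM, and it did not after centring (0.55) or after dividing by the sum over all rows (0.50) or over other genes (0.51). *Rpl37a* (0.46) and *Rps28* (0.43) followed. *Rps24* (-0.30), *Rpl26* (-0.29), known to regulate p53 translation, and *Rpl23* (-0.28) were lower. Other short genes were higher still in this comparison: the 602 under 1 kb had a median of 0.21, and the 49 of these with at least 200 RPKM one of 0.30. The transcript length and the change had a Spearman's rho of -0.44 over 73 ribosomal protein genes and of -0.37 over 5789 other genes. The part of length in the difference was not tested.

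The change from ESCs to EBs was compared within each line. In the WT line the family was higher at D3, with a median log2 change of 0.29 over the 79 genes and with 68 of the 76 genes of at least 10 RPKM higher, where 54.9% of other genes were. Divided by the sum over all rows, the median was 0.155. Past 1.5-fold were 4 of the 76, all higher, against 12.4% of all genes of that level in either direction. *Rps19* was at 399 RPKM in WT ESCs and at 780.2 in WT EBs, a log2 change of 0.97, the largest of any of the 76 in the 9 comparisons. The row of *Rps19* lies at chr7:25669733-25674821 (mm9), and its model there has 6 exons. Also among the 4, *Rpl36* went from 317 to 534 RPKM (0.75), and *Rps27a*, whose protein is made as a fusion with ubiquitin, from 507 to 832 (0.72). Divided by the sum over all rows *Rps27a* was at 0.58, just under 1.5-fold, and *Rps19* and *Rpl36* stayed past it.

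Lower at D3 in the WT line were *Rps27l*, from 301 to 228 RPKM (-0.40), *Rps15a* (-0.25) and *Rps29* (-0.16). Genes outside the family with at least 200 RPKM had a median change of 0.18 in the same line, and those under 1 kb with at least 10 RPKM one of 0.16. The family's median was above both. The part of level and length was not tested.

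In the KD line the median was 0.21 over the 79 genes, with 67 of 76 higher, where 52.9% of other genes were. None of the 76 passed 1.5-fold, beside 11.3% of all genes of at least 10 RPKM. *Rpl10* (0.55, from 638 to 935 RPKM), *Rpl23* (0.55) and *Rpl13* (0.55) were the highest. *Rpl3* was lower, with 1674 RPKM at D0 and 1362 at D3 (-0.30), followed by *Rpl27a* (-0.10) and *Rpl7a* (-0.09). *Rps19* was at 409.6 and 556 RPKM in this line, a smaller difference than in the WT line.

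In the AP3 line the levels hardly differed between days. The median was 0.02 over the 79 genes, 46 of the 76 (60.5%) were higher at D3, as were 59.7% of other genes, and none passed 1.5-fold although 13.6% of all genes of at least 10 RPKM did. The median changed sign with the scaling: it was -0.06 after centring on genes of at least 10 RPKM, -0.07 after dividing by the sum over all rows and -0.09 after dividing by that over other genes. Other genes were higher here, with a median of 0.08 over those of at least 10 RPKM and 0.28 over those of at least 200 RPKM. *Rpl37a* (0.38, from 509.8 to 666 RPKM), *Rps27l* (0.23) and *Rps29* (0.21) were the highest. *Rps15a*, with 55.4 and 39.8 RPKM, was the lowest at -0.48, ahead of *Rpl3* (-0.17). *Rps19* was at 567 RPKM at D0 and 588 at D3, and *Rpl36* at 528 and 487.

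**Figure D4:**
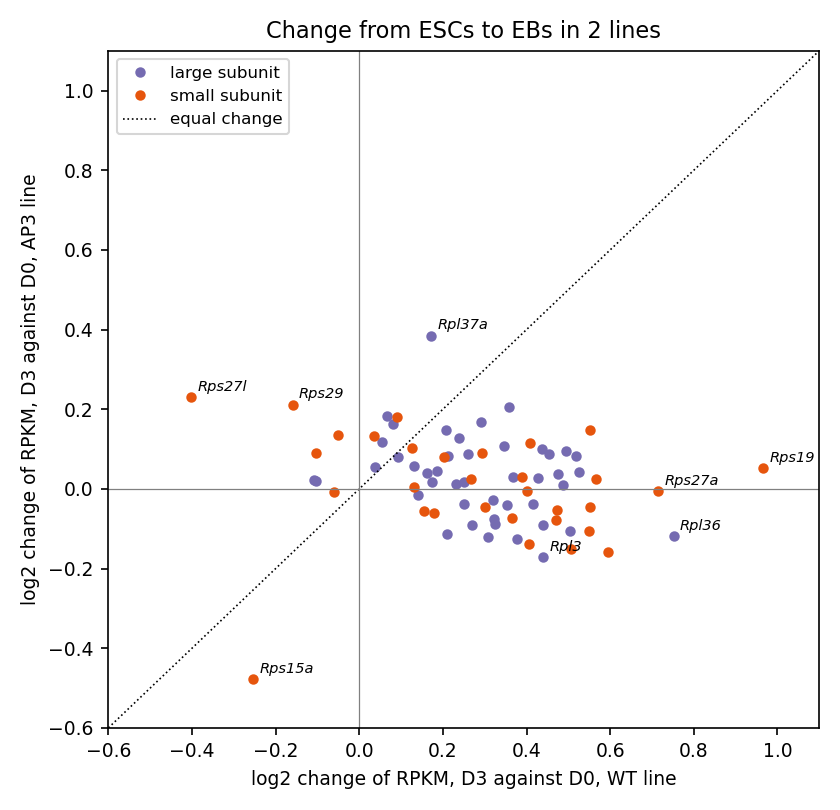
Log2 change of RPKM from D0 to D3 of each of the 76 ribosomal protein genes of at least 10 RPKM, in the WT line on the horizontal axis and in the AP3 line on the vertical axis, with the line of equal change dotted. Of the 76 points 62 lie below the dotted line, and *Rps19*, *Rpl36* and *Rps27a* lie farthest to the right.

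Set side by side, the signed log2 change was lower in the AP3 line than in the WT line for 62 of the 76 genes. This held for 46.1% of the 5934 other genes. The median of the difference between the lines was -0.29 for the family and 0.03 for the other genes. Between the KD and WT lines, 40 of the 76 (52.6%) had a lower signed change in KD, as did 50.1% of other genes. The median difference was -0.04 for the family. The D0 and D3 libraries of both lines enter such a difference, and with 1 library of each it was not tested. Of the 76 genes 33 were higher at D3 in all 3 lines and none was lower in all 3, where 27.9% and 18.4% of other genes were. After each library was scaled to the sum of its other genes, 3 were higher in all 3 lines and 3 lower. The libraries at the bottom for most genes were KD at D0, lowest for 46 of the 76, and WT at D0, lowest for 23, where 19.5% and 15.6% of other genes had their lowest value. WT at D3 was the highest library for 30 genes, beside 16.5% of other genes. AP3 at D3 was highest for 24 and AP3 at D0 for 15, beside 26.5% and 18.8% of other genes, so these counts were nearer the background.

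The stalk, which recruits the elongation factors, is made of *Rplp0*, *Rplp1* and *Rplp2*. All 3 were higher in AP3 than in WT ESCs: *Rplp0* had 1286 and 1637 RPKM (0.35), *Rplp1* 1922 and 2698 (0.49) and *Rplp2* 676 and 825 (0.29). From D0 to D3 they were higher in the WT line by 0.21, 0.44 and 0.45. In the AP3 line the values were -0.11, -0.09 and 0.09.

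Ribosomal proteins and related genes whose names fall outside the rule were set beside the family. *Rpl30*, in a row shared with *Gm12191*, had 706 RPKM in WT, 774 in KD and 987 in AP3 ESCs and 1032, 918 and 968 in the EBs. *Rpsa*, the laminin receptor protein of the small subunit, had 627, 593 and 883 RPKM at D0 and 1047, 757 and 737 at D3. These 2 genes had more in AP3 than in WT ESCs and more in WT EBs than in WT ESCs, as most members did. A list of 9 such genes, of which 8 were found, also holds *Rps19bp1*, whose protein binds that of *Rps19* and is not part of the ribosome. Among the 8 *Rpl22l1*, a paralog of *Rpl22*, differed most, with 66.6, 73.9 and 147 RPKM at D0 and 98.5, 65.8 and 113 at D3. It was the only gene of that list past 1.5-fold between AP3 and WT ESCs, where 6.14% of all genes of at least 10 RPKM were, and the list's median change there was 0.29.

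Other genes of translation were described by their medians in the same way. Of 16 translation factors and other genes with TOP mRNAs, 15 were found, none passed 1.5-fold in any comparison where between 1.88% and 13.6% of all genes of at least 10 RPKM did, and their median was 0.11 for AP3 against WT at D0 and 0.10 for D3 against D0 in WT. Among them *Eef1b2*, an exchange factor of elongation factor 1, was highest in both, at 0.32 and 0.38. *Nap1l1* was lowest for AP3 against WT ESCs, at -0.32. The 72 mitochondrial ribosomal protein genes of at least 10 RPKM had medians of 0.01 for AP3 against WT at D0, 0.13 for D3 against D0 in WT and 0.23 for D3 against D0 in AP3.

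The 26 ribosome biogenesis genes, which serve rRNA synthesis, modification and assembly, had a median of the other sign than the ribosomal protein genes in several comparisons. For AP3 against KD ESCs their median was -0.37, with 23 of 26 lower, where 50.8% of other genes were higher. The 3 of 26 past 1.5-fold, all lower, made a share near the 9.30% of all genes of at least 10 RPKM. *Gar1*, of the H/ACA complex that modifies rRNA, had 85.2 RPKM in KD and 50.9 in AP3 ESCs (-0.74). For AP3 against WT ESCs the median was -0.12, with *Dkc1* the lowest (-0.58) and *Nhp2* the highest (0.57). From D0 to D3 the median was -0.31 in the KD line and 0.27 in the AP3 line, where the ribosomal protein genes had 0.21 and 0.02. The helicase gene *Ddx21* had 131 RPKM in KD ESCs and 76.9 in KD EBs (-0.76).

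**Figure D5:**
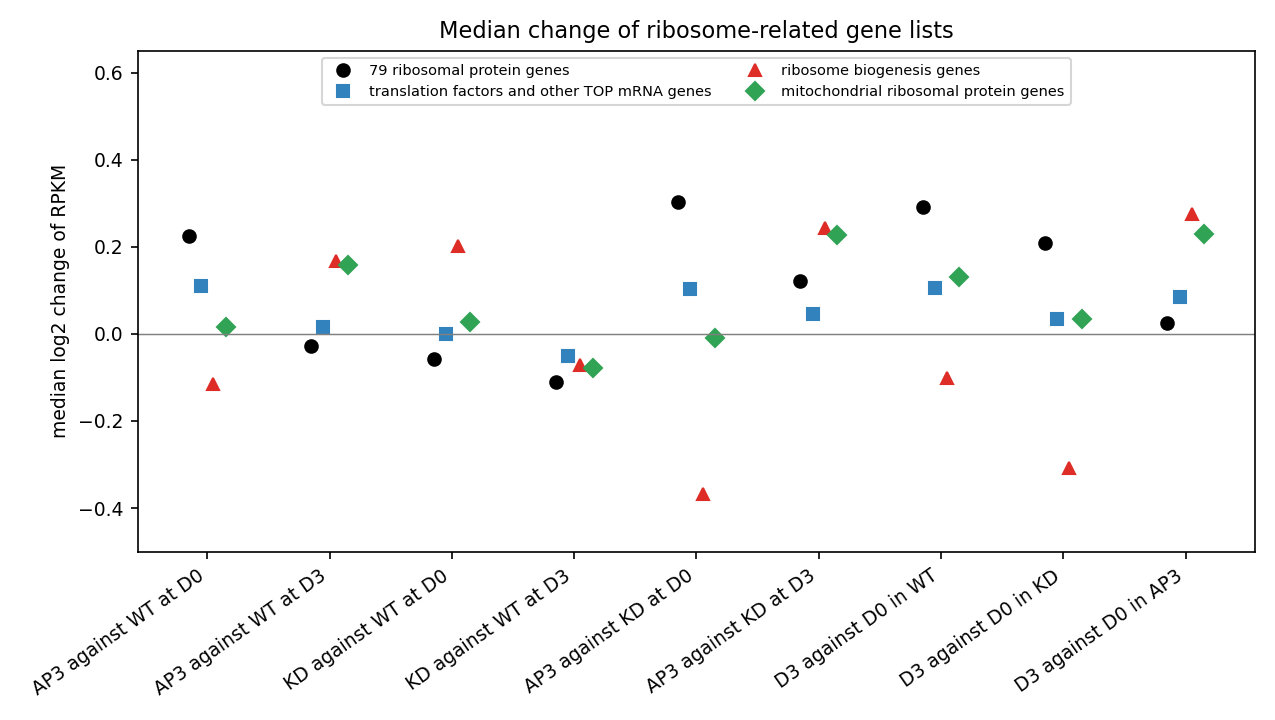
Median log2 change of RPKM in the 9 comparisons for the 79 ribosomal protein genes, 15 translation factor and other TOP mRNA genes, 26 ribosome biogenesis genes and 72 mitochondrial ribosomal protein genes. The ribosomal protein genes lie highest for AP3 against WT and KD at D0 and for D3 against D0 in WT and KD, and the biogenesis genes lie at -0.37 for AP3 against KD at D0.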

How the data were processed

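Poly(A) RNA of 6 libraries, 3 mouse ESC lines each at D0 and D3, had been sequenced by the authors on single-end TruSeq libraries. Reads were mapped to mm9 with few mismatches and with up to 20 genome locations kept for each read. The submitters' processing notes name TopHat 1.14, Bowtie 0.12.7 and Cufflinks 1.3.0, while the paper's methods give another TopHat version. The authors deposited RPKM values, reads scaled to transcript length and library size, for 21639 gene entries. Their table also holds log2 ratios between the lines, which were not used here.

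The 79 genes were chosen by symbol. Log2 changes were computed as the log2 ratio of RPKM + 0.001, and a gene was counted as past the threshold at 1.5-fold. There is 1 library per condition, so no p-value was computed. Reads behind each value are unknown: low RPKM values fell on whole-read steps with a score of only 0.0924 to 0.139, where exact steps would score 1. Transcript models came from GENCODE on NCBIM37, the assembly of mm9, and start sites from RefSeq on GRCm38.p6. Repeated sequence was measured as the number of genome places that hold each stretch of 36 bases of a model.

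Genes were named from the 5 highest and 5 lowest by mean RPKM, the 3 that moved most each way in each comparison among those of at least 10 RPKM, every such gene past 1.5-fold, the stalk genes, the paralogs, the gene that moved most each way in each list, and *H2afz*. Some of these genes are not reported here. The gene set and the lists were chosen with earlier results of these data known. The alternatives tried were pseudocounts, thresholds, scalings and subsets of the genes. Scripts were tested on simulated data. The software was Python 3.11.15 (pandas 2.3.3, numpy 2.4.6, numba 0.67.0, scipy 1.17.1), and figures came from matplotlib 3.10.9.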

Additional observations from a re-analysis of the deposited data

Results flagged for a closer look

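The difference between AP3 and WT in the family was seen at D0 and not at D3. The median log2 change of the 79 genes was 0.22 at D0 and near 0 at D3, at -0.03, a difference of -0.25. Of the 76 genes of at least 10 RPKM 31 (40.8%) were higher in AP3 on both days and 4 lower on both, beside 29.1% and 20.9% of other genes. With 1 library for each condition this difference was not tested.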

How the results depend on the processing

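No pairing of replicates was possible because, with 1 library for each condition, the groups have no numbered replicates. A fit of D3 against D0 with the 3 lines as pairs, which are different genotypes, was not run. Of the 9 medians, pseudocount 1, centring on the median of genes of at least 10 RPKM, the 10 RPKM minimum in each library, and summing of rows with one symbol left all within 0.1 of the reported value, and none reversed a median of at least 0.1. Centring turned the median for D3 against D0 in AP3 to -0.06. Dividing by the sum over all rows moved AP3 against WT at D0 to 0.14, KD against WT at D3 to -0.05, D3 against D0 in AP3 to -0.07, D3 against D0 in WT to 0.155 and AP3 against KD at D3 to 0.0126, and dividing by the sum over other genes moved the latter to 0.0171 and D3 against D0 in AP3 to -0.0899. The cause was not tested. With models under 0.6 kb alone, a choice made after the data were seen, the medians were -0.21 for KD against WT at D3, 0.41 for AP3 against KD at D0 and 0.24 for AP3 against KD at D3. The share of the libraries without small RNA rows and the 10 highest other genes was 18.6% in WT, 17.7% in KD and 20.9% in AP3 at D0 and 20.9%, 19.5% and 19.7% at D3. The genes higher at D3 in all 3 lines were 15 after centring and 3 after scaling to other genes, with 2 and 3 lower. Counts past the threshold over the 79 genes, in the order of the report's comparisons AP3 against WT at D0 and D3, KD against WT at D0 and D3, AP3 against KD at D0 and D3 and D3 against D0 in WT, KD and AP3, were 28, 8, 7, 18, 39, 12, 37, 23 and 4 at a log2 threshold of 0.32. At 2-fold they were 1 for AP3 against WT at D0 and 0 in the comparisons AP3 against WT at D3, KD against WT at D3, AP3 against KD at D0 and D3, and D3 against D0 in WT and AP3. The 10 RPKM minimum left 0 for KD against WT at D3 and for D3 against D0 in KD and AP3 and 1 for AP3 against KD at D3, and pseudocount 1 left 1 for AP3 against KD at D3 and 0 for D3 against D0 in AP3. Depth is not known, so counting error could not be given.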
